A study of Rattus norvegicus with 6 samples.

Results

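The AP-1 transcription factors of the Fos and Jun families were followed in rat Schwann cells, which ensheathe the axons of peripheral nerves, after stimulation with soluble Neuregulin1. The genes were taken by symbol from the deposited count files as Fos, Fosb, Fosl1, Fosl2, Jun, Junb and Jund, and all 7 were found among the 17327 genes listed. All 7 also passed the filter on low counts that left 9740 genes to be tested. Primary cultures from the sciatic nerve of adult Wistar rats were starved for 18 h in medium with 2% foetal bovine serum and forskolin at 10 μM, which activates adenylyl cyclase. For 6 h they then received soluble NRG1β1 at 10 nM (NRG1) or the buffer of the ligand, PBS with 1% bovine serum albumin (mock). Both groups thus shared serum and forskolin, and before the starvation the medium of both held 10% serum, forskolin and, per the labels, 63 ng/mL glial growth factor. The methods of the study name recombinant soluble NRG1β1 in its place. By those methods both groups, mock included, were grown with the ligand itself before starvation. Each of 3 independent experiments, called cultures 1, 2 and 3 here, gave 1 mock and 1 NRG1 sample.

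AP-1 is a dimer of basic leucine zipper proteins. Jun proteins pair with each other or with Fos proteins, while Fos proteins need a Jun partner to bind DNA. Fos and Jun are classical immediate early genes, switched on within minutes by growth factors through MAP kinases and then switched off, whereas Fosl1, which encodes Fra-1, typically follows later and stays on longer as long as ERK is active. In Schwann cells c-Jun, the product of Jun, opposes the myelin programme and drives the repair programme after nerve injury. NRG1 acts on these cells through the ErbB2 and ErbB3 receptors.

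The libraries held from 6821590 to 15475018 counts on genes, and the smallest level that could be seen, taken as 3 counts, was 0.19 to 0.44 CPM, the count scaled to library size. The lowest count of any AP-1 gene in any library was 35. Culture 1 stood apart from the others. The summed level of 9 fibroblast markers was 71300 to 72400 CPM in its 2 libraries against 15300 to 24100 CPM in the other 4. Dcn, Lum and Thy1 were counted in both libraries of culture 1 and had no count in cultures 2 and 3. Col3a1, Pdgfra and Postn were also higher in culture 1. Col1a2 and Fbln1 did not follow. Col1a2 had no count in culture 1, and Fbln1 was at 7.88 and 7.73 CPM there against 3.03 to 7.80 CPM in the other libraries. Col1a1, the most counted marker, was at 28200 and 32100 CPM in culture 1 and still at 13400 to 21500 CPM in the others. The summed level of 11 Schwann cell markers was 4880 to 6230 CPM in culture 1 and 12800 to 16400 CPM in the others, with Sox10, S100b, Ngfr and Erbb3 found in every library and Fabp7 in none. Macrophage markers summed to at most 10.7 CPM in any library, with Ptprc, Cd163, Adgre1 and Tyrobp at 0, and endothelial markers to at most 15.7 CPM, with Pecam1, Cdh5, Emcn and Cldn5 at 0. In RNA from whole cultures, fewer cells of a type and less RNA per cell cannot be told apart. Values without culture 1 are therefore given for each AP-1 gene and each list.

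Within the family 1 gene fell and 1 rose with NRG1. Fos fell in all 3 cultures, Fosl1 rose in all 3, and Fosb, Fosl2, Jun, Junb and Jund did not pass the test. At an adjusted p of at most 0.01 in edgeR's quasi-likelihood test with the culture as a block, 1 of the 7 was higher with NRG1 and 1 was lower, where 6.31% of all tested genes were higher and 5.51% were lower. Both also changed over 2-fold, as 1.56% of all tested genes did upwards and 1.91% downwards. The same 2 genes were the only members whose mock and NRG1 samples did not overlap, in a table in which 20.1% of genes had no overlap. Without culture 1 the count was again 1 higher and 1 lower, beside 5.94% and 6.05% of the genes tested there. The calls rest on comparing samples within cultures. When the culture was left out of the model, the log2 fold changes were -1.62 for Fos and 1.64 for Fosl1. Neither gene passed, at an adjusted p of 0.22 for Fos and 0.16 for Fosl1. In that fit 0 of all 9740 tested genes were higher and 0 were lower. The median log2 fold change of the 7 was -0.13, against -0.03 for all tested genes.

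**Figure D1:**
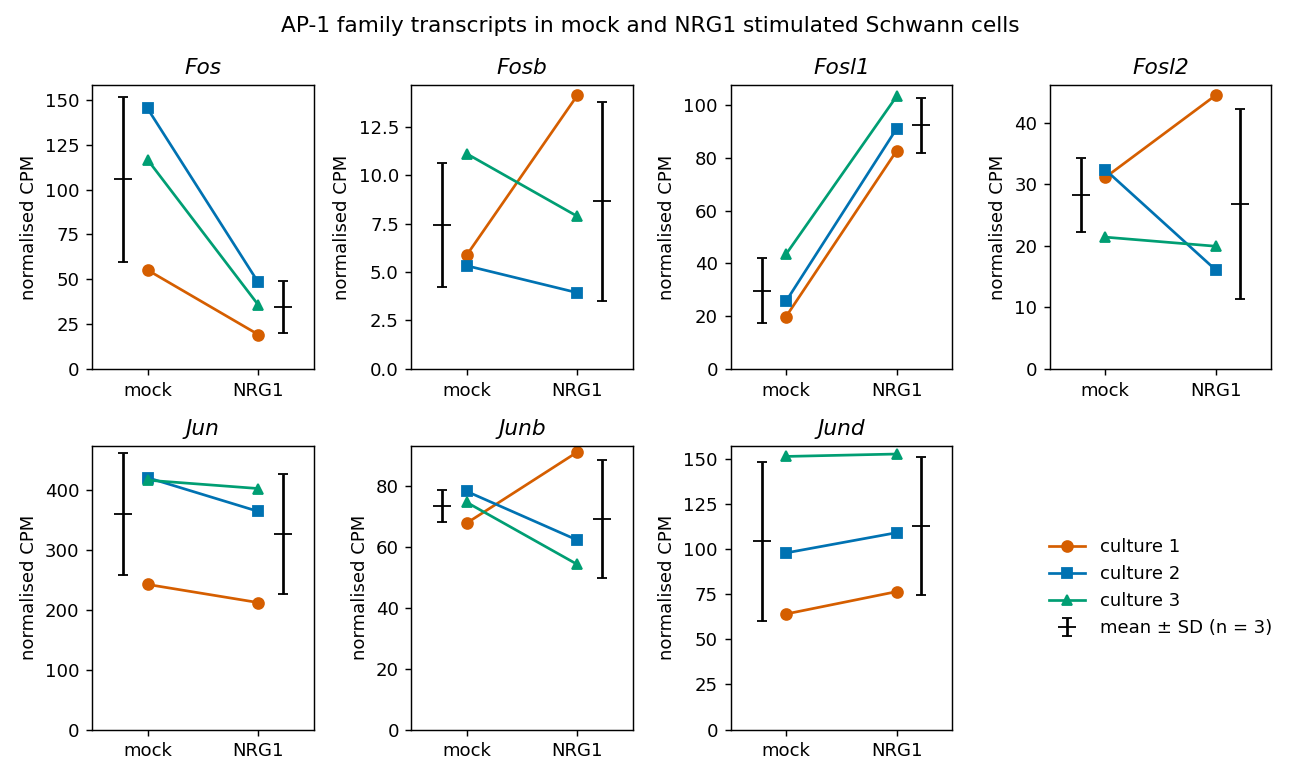
Level of each AP-1 gene in normalised CPM on a linear axis from 0, in mock and NRG1 samples. Lines join the samples of a culture, and black bars give the mean ± SD of 3 samples. Fos fell from 55.2 to 145.3 CPM down to 19.2 to 48.3 CPM, Fosl1 rose from 19.8 to 43.4 CPM up to 82.7 to 103.3 CPM, and for Fosb, Fosl2 and Junb the line of culture 1 rises while the others fall.

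Fos encodes c-Fos, the founding member of the Fos group. Its normalised level was 55.2, 145.3 and 116.8 CPM in the mock samples of cultures 1, 2 and 3 and 19.2, 48.3 and 35.8 CPM in their NRG1 partners. The counts behind these levels were 413, 982 and 1482 in mock and 144, 430 and 554 in NRG1. Every NRG1 sample lay below every mock sample, although the mock samples themselves spread 2.63-fold between cultures. The mean level was 105.8 ± 46.1 CPM without and 34.4 ± 14.6 CPM with NRG1 (SD, n = 3 each). The log2 fold change was -1.61 (adjusted p = 2.2e-06, SE 0.12), which is a 3.06-fold lower level with a 95% interval of 2.55 to 3.67. It was the ninth gene of the table when ranked by p. Within cultures 1, 2 and 3 the log2 ratios were -1.51, -1.58 and -1.70, an SD of 0.09, so that the size of the fall differed little between cultures whose starting levels differed widely. Without culture 1 the log2 fold change was -1.65 (SE 0.18).

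Fosl1 encodes Fra-1, a Fos protein without the strong activation domain of c-Fos. It was found at 19.8, 25.6 and 43.4 CPM in the mock samples of cultures 1, 2 and 3 and at 82.7, 91.0 and 103.3 CPM in their NRG1 partners. All NRG1 samples were above all mock samples, and the cultures kept their order. The mean level was 29.6 ± 12.3 CPM without and 92.3 ± 10.4 CPM with NRG1 (SD, n = 3 each). The log2 fold change was 1.69 (adjusted p = 8e-06, SE 0.15), a 3.22-fold higher level with a 95% interval of 2.56 to 4.05. The log2 ratios of cultures 1, 2 and 3 were 2.05, 1.82 and 1.25. The culture with the highest mock level had the smallest rise, and the NRG1 samples were nearer to each other than the mock samples. Without culture 1 the log2 fold change was 1.52 (SE 0.19).

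Ranked by log2 fold change among all 9740 tested genes, Fosl1 stood at percentile 99.7 and Fos at percentile 0.452. The remaining members lay between percentile 34.3, for Fosl2, and percentile 68.2, for Jund.

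**Figure D2:**
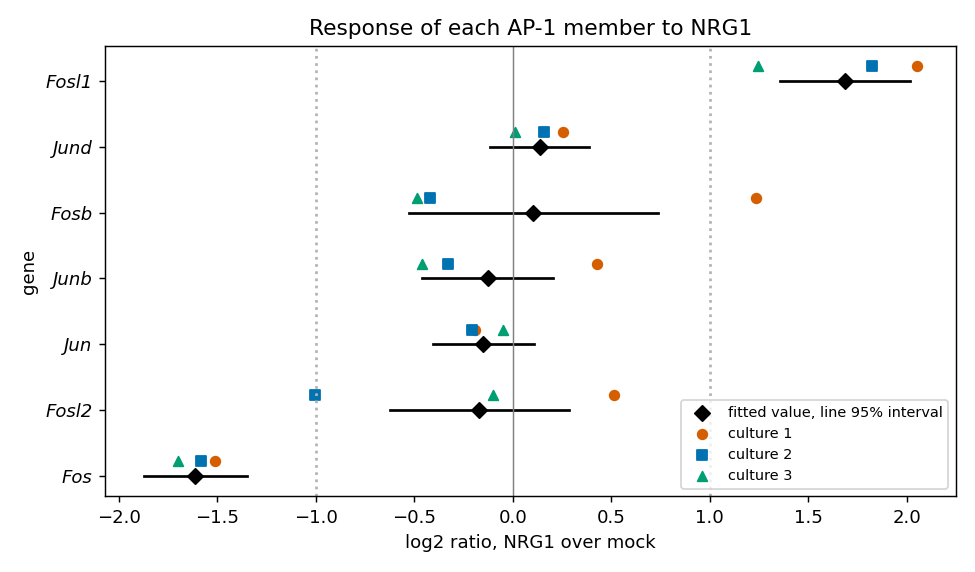
Log2 ratio of NRG1 over mock for each AP-1 gene, with the fitted value as a diamond, its 95% interval as a line and the ratio of each culture as a coloured mark. Dotted lines mark a 2-fold change. Fos at -1.61 and Fosl1 at 1.69 lie outside them with every culture, while the intervals of the other 5 genes include 0.

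Fosb encodes the Fos group member that neurons are known to splice into a stable truncated form, ΔFosB. It was the least counted of the 7. Its level was 5.88, 5.33 and 11.1 CPM in the mock samples of cultures 1, 2 and 3 and 14.1, 3.93 and 7.88 CPM in their NRG1 partners, which overlapped. The log2 ratio was 1.24 in culture 1 and -0.42 and -0.49 in cultures 2 and 3. The fitted log2 fold change was 0.10 (adjusted p = 0.83, SE 0.30), and its 95% interval of -0.53 to 0.74 includes changes of over 1.5-fold upwards. Cultures 2 and 3 alone gave -0.47 (adjusted p = 0.26, SE 0.28).

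Fosl2 encodes Fra-2, the other Fos protein that lacks the activation domain. It was measured at 31.1, 32.4 and 21.4 CPM in the mock samples of cultures 1, 2 and 3 and at 44.5, 16.1 and 19.9 CPM in their NRG1 partners. The log2 ratios were 0.51, -1.003 and -0.10, so the cultures did not share a direction. The log2 fold change was -0.17 (adjusted p = 0.61, SE 0.21), with a 95% interval of -0.62 to 0.29. With culture 1 left out it was -0.53 (adjusted p = 0.061, SE 0.21).

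Jun, which encodes c-Jun, had the highest counts of the family. Its level was 242.5, 420.8 and 416.6 CPM in the mock samples of cultures 1, 2 and 3 and 212.2, 364.5 and 402.6 CPM in their NRG1 partners. Both samples of culture 1 were the lowest of their group, and the groups overlapped. The NRG1 sample was the lower one in each culture, but by small amounts, with log2 ratios of -0.19, -0.21 and -0.05. The log2 fold change was -0.15 (adjusted p = 0.40, SE 0.12). The 95% interval of the ratio ran from 0.756 to 1.08, so that neither a 2-fold rise nor a 2-fold fall of Jun mRNA at 6 h lies within it. For cultures 2 and 3 alone the log2 fold change was -0.12 (adjusted p = 0.70, SE 0.18).

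Junb encodes a Jun protein that often counteracts c-Jun. Its mock samples were close together at 67.7, 78.1 and 74.5 CPM, while the NRG1 samples were spread over 91.1, 62.1 and 54.2 CPM in cultures 1, 2 and 3. The log2 ratios were 0.43, -0.33 and -0.46, again with culture 1 going the other way. The log2 fold change was -0.13 (adjusted p = 0.60, SE 0.16), with a 95% interval of -0.46 to 0.21. Cultures 2 and 3 alone gave -0.39 (adjusted p = 0.11, SE 0.18).

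Jund, known as the member that is made steadily in resting cells, was at 64.0, 97.8 and 151.2 CPM in the mock samples of cultures 1, 2 and 3 and at 76.4, 109.0 and 152.5 CPM in their NRG1 partners. The order of the cultures was the same in both groups, and the spread between cultures was 2.36-fold in mock. The log2 ratios were 0.25, 0.16 and 0.01. The log2 fold change was 0.14 (adjusted p = 0.43, SE 0.12), and the 95% interval of the ratio was 0.924 to 1.31. With culture 1 left out the log2 fold change was 0.09 (adjusted p = 0.80, SE 0.18).

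Fosb, Fosl2 and Junb thus had a positive log2 ratio in culture 1 and negative ratios in cultures 2 and 3. The summed level of the fibroblast markers was highest in both samples of culture 1, though not every marker followed, as given above. The part of these markers in this pattern was not tested.

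The members were next set against each other within each culture, since the ratio of 2 genes in a library does not depend on how libraries are scaled. Of the 21 pairs of members, 12 differed in the same direction in all 3 cultures. These were each pair that held Fos, each pair that held Fosl1, and Jun against Jund. With 3 cultures an exact two-sided sign flip permutation test cannot give a p below 0.25, and adjusted over the 21 pairs the smallest value was 0.44. The difference of the log2 ratios of Fos and Fosl1 was -3.57, -3.41 and -2.95 in cultures 1, 2 and 3, a mean of -3.31 ± 0.32 (SD, n = 3). That of Fos and Jund was nearly constant, at -1.77, -1.74 and -1.71. The difference between Jun and Jund was small, at -0.45, -0.36 and -0.06, with a mean of -0.29 ± 0.20 (SD, n = 3). Among the remaining 9 pairs, all made of Fosb, Fosl2, Jun, Junb and Jund, the mean difference was at most 0.34 in size and the cultures did not share a sign.

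Counted together, the 7 genes gave 486.2, 805.4 and 835.0 CPM in the mock samples of cultures 1, 2 and 3 and 540.2, 695.0 and 776.2 CPM in their NRG1 partners. The total rose in culture 1 and fell in the others. Counts also depend on the length of a transcript, and no length was used here, so shares are compared between libraries and not between genes. Of the summed AP-1 counts, Fos held 11.3%, 18.0% and 14.0% in the mock samples of cultures 1, 2 and 3 and 3.55%, 6.95% and 4.61% in their NRG1 partners. Fosl1 held 4.07%, 3.18% and 5.20% in mock and 15.3%, 13.1% and 13.3% in NRG1. For both genes the groups did not overlap. The 4 Fos group genes together held 23.0%, 25.9% and 23.1% in mock and 29.7%, 22.9% and 21.5% in NRG1, so that Fos and Fosl1 moved in opposite directions within a group share that moved less. Counting error is small beside these differences, with exact Clopper-Pearson 95% intervals of 10.3% to 12.4% for Fos and 3.45% to 4.76% for Fosl1 in mock sample 1, which cover counting error only. In the same libraries Jun held between 49.9% and 52.3% in mock, and 39.3%, 52.4% and 51.9% in NRG1.

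**Figure D3:**
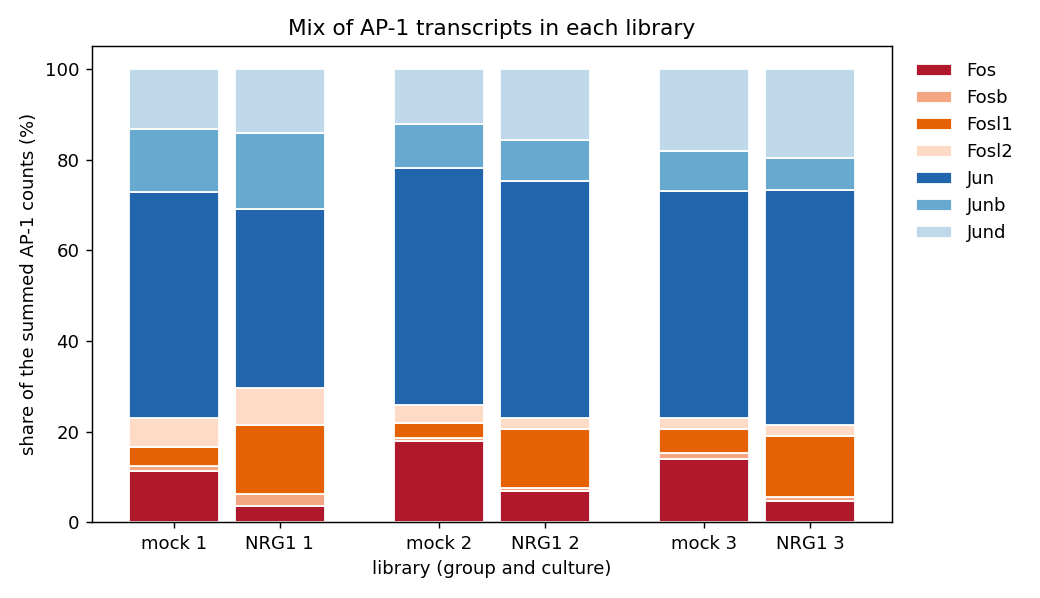
Share of each gene in the summed counts of the 7 AP-1 genes, in percent, for each library, with the mock and NRG1 libraries of a culture side by side. Red and orange tones are the Fos group and blue tones the Jun group. The dark red share of Fos shrank and the orange share of Fosl1 grew in each culture, and Jun held the largest share in every library.

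The ratio of Fos counts to Fosl1 counts joins both movements in 1 number. It was 2.79, 5.68 and 2.69 in the mock samples of cultures 1, 2 and 3 and 0.232, 0.531 and 0.346 in their NRG1 partners, a drop of 12.0-fold, 10.7-fold and 7.77-fold. Fos had the larger count in every mock library and Fosl1 in every NRG1 library. Since no transcript length was used, these counts do not show which of the 2 transcripts was the more abundant. The drop of the ratio within a culture does not depend on length.

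The promoter sequences of RefSeq, on the GRCr8 build of the rat genome and from 250 bases before to 50 bases after the annotated start, were at hand for Fosb, Fosl1, Fosl2, Junb and Jund. They were searched on both strands for the AP-1 site TGACTCA, the cAMP response element TGACGTCA, its half-site TGACG, which the full element also holds, and the CArG box of serum response factor. The AP-1 site was in 4.63%, the full element in 1.83%, the half-site in 21.2% and the CArG box in 1.64% of 33469 promoters. None of these 5 windows held an AP-1 site or a CArG box. Fosl1, the gene that rose, had 2 half-sites on the reverse strand, at bases -148 to -144 and -84 to -80 from the start. Jund had the full element at bases -221 to -214 and a further half-site at -98 to -94. Junb had 1 half-site and Fosb and Fosl2 had none. The windows of Fosl1 (chr1:212183635-212183934, forward strand) and Jund (chr16:18769722-18770021, reverse strand) are shown since they hold the most matches, with the matches in capitals. A match is a description of the letters and not a bound site.
Fosl1: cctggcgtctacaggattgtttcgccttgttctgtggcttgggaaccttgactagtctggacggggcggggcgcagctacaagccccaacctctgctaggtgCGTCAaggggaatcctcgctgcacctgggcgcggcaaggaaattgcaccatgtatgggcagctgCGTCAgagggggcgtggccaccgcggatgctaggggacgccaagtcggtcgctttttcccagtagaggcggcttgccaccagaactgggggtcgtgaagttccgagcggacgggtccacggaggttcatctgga
Jund: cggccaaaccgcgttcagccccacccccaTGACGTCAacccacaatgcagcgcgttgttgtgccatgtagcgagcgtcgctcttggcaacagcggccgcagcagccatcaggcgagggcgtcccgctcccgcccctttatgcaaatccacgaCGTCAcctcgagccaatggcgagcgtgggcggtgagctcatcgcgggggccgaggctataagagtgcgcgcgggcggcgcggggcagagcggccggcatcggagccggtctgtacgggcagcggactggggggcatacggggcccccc

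Genes that work with AP-1 were described from lists. Some listed genes, such as Atf3, Egr2 and Pmp22, were picked by the study from these samples, so the counts are not independent evidence of a direction. Each count is to be read against the 6.31% of all tested genes that were higher and the 5.51% that were lower. Leaving out culture 2 gave 524 higher and 392 lower of 10339 tested genes, and leaving out culture 3 gave 408 and 253 of 10160. Among the other basic leucine zipper genes, which can pair with Fos or Jun proteins or compete for their sites, 23 of 31 were tested, none was higher and 5 were lower. Their median log2 fold change was -0.21. Atf3, a stress-induced partner of Jun proteins, was at 27.4, 93.4 and 66.5 CPM in the mock samples of cultures 1, 2 and 3 and at 3.20, 12.7 and 7.55 CPM in their NRG1 partners. Like Fos, every NRG1 sample of Atf3 lay below every mock sample, with a log2 fold change of -3.03 (adjusted p = 6.1e-08, SE 0.15). Nfe2l3, which pairs with small Maf proteins, had a log2 fold change of -1.49 (adjusted p = 0.0079). It was counted at only 3.77 CPM in mock and 1.25 CPM in NRG1 on average. It missed the threshold with DESeq2 and the block, at an adjusted p of 0.041, and when single cultures were left out, at 0.012 without culture 1 and 0.039 without culture 2. Nfe2l2 and Cebpa, named after their values were seen, were also lower, with log2 fold changes of -0.59 (adjusted p = 0.0044) and -0.83 (adjusted p = 0.00072). Atf4, the most counted member of the list without a call, was at 405.6 CPM in mock and 417.1 CPM in NRG1. Leaving out culture 1, 2 or 3 gave 5, 4 and 3 lower genes and none higher.

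In the MAP kinase cascades that switch AP-1 on, 29 of 37 listed genes were tested, 2 were higher and 1 was lower, with a median log2 fold change of 0.07. These shares are near those of all tested genes, 6.31% higher and 5.51% lower, so the counts are no result about the list, and its called genes are given as single values. Map2k1, which encodes the ERK kinase MEK1, rose from 207.5 to 312.4 CPM on average, a log2 fold change of 0.59 (adjusted p = 0.0033, SE 0.12). Its NRG1 samples were all above its mock samples. The other higher gene, Rps6ka1, which encodes the ERK-activated kinase RSK1, was named after its values were seen and had a log2 fold change of 0.51 (adjusted p = 0.0083). Rps6ka5, which encodes MSK1, a kinase that acts on histones and CREB at the Fos promoter, fell from 120.5 to 66.2 CPM, a log2 fold change of -0.87 (adjusted p = 0.00019, SE 0.12). Mapk3, which encodes ERK1, had a log2 fold change of -0.19 (adjusted p = 0.29). Leaving out culture 1, 2 or 3 gave 2, 1 and 0 higher genes and 1 lower gene each time, and Map2k1 had an adjusted p of 0.029 without culture 3.

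Of the genes that control transcription of Fos and Jun, such as Srf and the ternary complex factors, 12 of 20 were tested and none was called in either direction. The median log2 fold change was -0.09. Stat3, which binds the inducible element of the Fos promoter, was at 371.1, 291.7 and 296.3 CPM in the mock samples of cultures 1, 2 and 3 and at 404.1, 181.6 and 182.4 CPM in their NRG1 partners. It had a log2 fold change of -0.42 (adjusted p = 0.065) and passed only without culture 1, at -0.69 (adjusted p = 0.0016), where 1 gene of the list was lower. Among genes for turnover and cofactors of AP-1 proteins, 15 of 18 were tested, 2 were higher and none lower, with a median log2 fold change of 0.14. At 6.31% of all tested genes higher, this is about 1 gene above the background. They were Trib2, with a log2 fold change of 0.87 (adjusted p = 0.0069), and Trib1, named after its values were seen, with 0.74 (adjusted p = 0.0031). Both encode tribbles pseudokinases, which steer proteins to the ubiquitin ligase COP1, known to act on c-Jun. Ddb1, an adaptor of cullin ubiquitin ligases, had a log2 fold change of -0.14 (adjusted p = 0.46). Leaving out culture 1, 2 or 3 gave 1, 1 and 0 higher genes, and Trib2 missed the threshold without culture 2 (adjusted p = 0.040) and without culture 3 (adjusted p = 0.012).

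Of 31 genes that textbooks give as AP-1 targets, 22 were tested. Of these 7 were higher and none was lower, with a median log2 fold change of 0.41. Lif, a cytokine of the interleukin-6 family, was at 12.4, 25.0 and 20.2 CPM in the mock samples of cultures 1, 2 and 3 and at 42.9, 61.9 and 75.0 CPM in their NRG1 partners, which did not overlap. Its log2 fold change was 1.66 (adjusted p = 7.4e-06, SE 0.15). Ccnd1, the G1 cyclin D1, rose from 484.7 to 1238.0 CPM on average, a log2 fold change of 1.39 (adjusted p = 1.2e-05, SE 0.13). Ccl2, a chemokine that recruits monocytes, had a log2 fold change of 1.64 (adjusted p = 0.00018, SE 0.22) and overlapping groups, since its mock level ranged from 1.48 CPM in culture 2 to 47.7 CPM in culture 1. It missed the threshold in DESeq2 with the block, at an adjusted p of 0.011. Tnc, the matrix protein tenascin C, was the most counted gene of the list without a call, with a log2 fold change of 0.66 (adjusted p = 0.013). It passed with DESeq2 and the block, at an adjusted p of 0.00067, and without culture 2, at 0.0034. Without culture 1, 9 genes of the list were higher and 2 were lower.

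Of 17 genes linked to c-Jun in repair Schwann cells, 13 were tested, 3 were higher and 1 was lower, with a median log2 fold change of 0.08. The higher ones were Lif, given above, Nrcam, a cell adhesion molecule, with a log2 fold change of 0.96 (adjusted p = 9.2e-05, SE 0.12), and Shh, the signalling protein sonic hedgehog. Shh had a log2 fold change of 1.04 (adjusted p = 0.0045, SE 0.22), which without culture 1 was 0.63 (adjusted p = 0.071). Ngfr, the receptor p75, was at 2078.6 CPM in mock and 2112.7 CPM in NRG1. Of 14 myelin genes that c-Jun is known to oppose, all were tested, 8 were lower and none was higher, with a median log2 fold change of -0.86. Drp2, a dystrophin-related protein of the myelin sheath, had a log2 fold change of -2.40 (adjusted p = 0.00028, SE 0.35). It was the largest fall of the list, at 13.6 CPM in mock and 2.02 CPM in NRG1 on average. Its size rested partly on culture 2, with log2 ratios of -1.29, -3.47 and -1.59 in cultures 1, 2 and 3. Without culture 2 the log2 fold change of Drp2 was -1.575 (SE 0.33). Without culture 1 the repair genes counted 2 higher and 2 lower, and the myelin genes 7 lower.

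**Figure D4:**
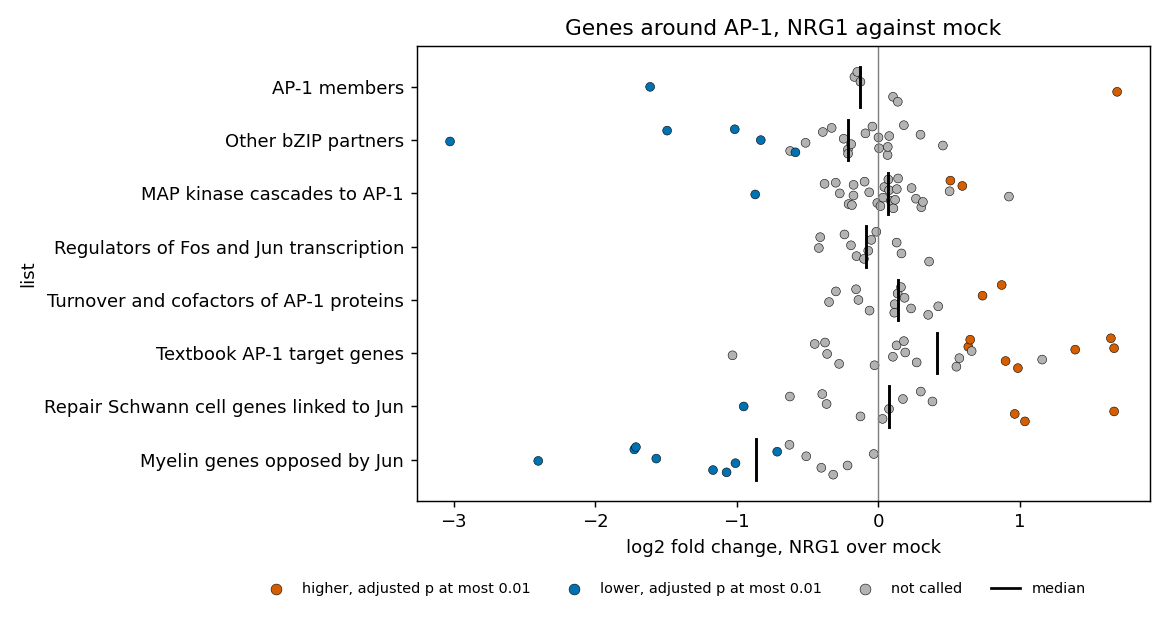
Log2 fold change of NRG1 over mock for each tested gene of the AP-1 family and of 7 lists of genes around it. Orange and blue points passed an adjusted p of 0.01, grey points did not, and black lines are medians. The AP-1 genes have 1 orange and 1 blue point, the target list leans right with a median of 0.41, and the myelin list leans left with a median of -0.86.

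The genes whose pattern was most like that of Fos over the 6 samples, by Pearson correlation of log2 CPM, were Emp2 (r = 0.994), Tmem56 (0.994), Fam46c (0.993), Add1 (0.989) and Ctns (0.988). The samples are 3 pairs, so these values hold both the difference between cultures and the response. They are the highest among all tested genes, members left out, so values near 1 come with the choice. Emp2 had a log2 fold change of -1.87 (adjusted p = 5.8e-07), close to that of Fos, while Tmem56 had -0.30 (adjusted p = 0.31). Across the log2 ratios of the 3 cultures alone, the correlation with Fos was -0.55 for Emp2 and 0.12 for Tmem56. It was 0.81 for Fam46c, 0.68 for Add1 and -0.03 for Ctns. For Jun the 5 most alike were Plcd1 (r = 0.998), Hoxb5 (0.996), Insc (0.996), Map4 (0.995) and Tpcn2 (0.995). None of these 5 was called, and their log2 fold changes lay between -0.22 for Insc and -0.13 for Map4. They were chosen for their likeness to Jun, so this is no separate result.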

How the data were processed

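Poly(A) RNA of 3 mock and 3 NRG1 samples was sequenced on an Illumina NextSeq. Per the labels and the study's methods, reads were mapped to rn5 with TopHat2 2.0.10, and the authors deposited raw HTSeq read counts per RefSeq gene symbol. The HTSeq version and strand setting are not given in the sources used here. Between 47.0% and 49.9% of alignments fell on a gene, and 5 summary lines per library were left out. Genes and lists were chosen with earlier results of these data known.

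Low genes were removed by filterByExpr (minimum count 10), and TMM-normalized counts were tested in edgeR 4.0.16 (R 4.3.3) with culture as a block and Benjamini-Hochberg adjustment over all 9740 genes. Standard errors are the log2 fold change over the square root of F. Log2 ratios of cultures used a prior count of 2. Normalised CPM uses TMM library sizes. The block follows the paired design of the study's methods, in which a number marks an independent cell preparation. Deviations of same-numbered samples correlated across genes at 0.67 to 0.91, and of others at -0.80 to 0.51. No pair of libraries agreed within sampling noise. Named genes of each list were the called genes with the largest change in each direction, up to 3 for bZIP partners, targets and repair genes and 1 otherwise, and the most counted gene without a call; some of these are not reported here. Scripts were tested on simulated data. DESeq2 1.42.0 was an alternative.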

Additional observations from a re-analysis of the deposited data

How the results depend on the processing

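The calls of Fos and Fosl1 kept their direction and side of the threshold with RLE normalization, with DESeq2 1.42.0 and the replicate block, with no low-count filter, with libraries thinned to the smallest total and without each culture. Leaving out 1 culture gave log2 fold changes of -1.65 to -1.54 for Fos and 1.52 to 1.97 for Fosl1, and 1 member higher and 1 lower each time. Such fits rest on 2 pairs and on a spread pooled over genes. With no replicate block edgeR called 0 of all 9740 tested genes in either direction, and thus 0 members and 0 genes of the other lists. The adjusted p was 0.22 for Fos and 0.16 for Fosl1, while 1 member was higher and 1 lower at an unadjusted p under 0.05. DESeq2 with no replicate block, an alternative chosen after seeing the data, called 1 member higher and 0 lower (Fos, adjusted p = 0.021). It called 3 genes of the other lists higher and 3 lower, beside 115 higher and 63 lower of 9518 genes tested. With the fold change threshold inside the test Fos passed (adjusted p = 0.0073) and 0 members were higher (Fosl1, adjusted p = 0.013). Of all 9740 tested genes, 13 were higher and 9 lower there. Some members and named genes without a call changed sign when 1 culture was left out, while Jun and Jund kept theirs. Their log2 fold changes were -0.47 to 0.55 for Fosb, -0.53 to 0.21 for Fosl2 and -0.39 to 0.072 for Junb. For Atf4 the values were -0.039 to 0.15, and for Ngfr -0.047 to 0.18. Genes of the other lists called higher were 13, and 8 to 13 when 1 culture was left out, with 8 reached without culture 3. Over all tested genes 615 were higher, and 408 without culture 3. List genes called lower were 15, and 12 to 18 when 1 culture was left out. Over all tested genes 537 were lower, and 253 to 601 when 1 culture was left out. A prior count of 0.5 moved no difference between members by more than its SD. Counts per kb were not run for lack of lengths. Thinned to the smallest library, Nfe2l3 missed the threshold (adjusted p = 0.016).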
